A study of Mus musculus with 6 samples.

Results

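ATF4 and 9 genes of its stress response, Ddit3, Asns, Chac1, Sesn2, Slc3a2, Slc7a5, Trib3, Mthfd2 and Psat1, were followed in hearts of mice labelled as lacking Srsf3 in cardiomyocytes. The 10 genes were matched by symbol to the 36558 genes of the authors' deposited gene table and to the gene names of 265079 splicing events. All 10 were tested there, and 9 have listed events, 139 in all. A second annotated entry with the symbol Ddit3, with 105 nt of exon and lying inside the first, is listed at 0 and was not tested. Polyadenylated RNA of 6 hearts was sequenced, 3 from control mice (Srsf3Fl/Fl), in which both copies of Srsf3 are floxed, and 3 from cKO mice (Srsf3Fl/Fl-βMHC-Cre), which carry Cre recombinase as well. Cre is driven by the Myh7 promoter and is active in cardiomyocytes during development in utero, per the labels, so the deletion is not directed at other cell types of the heart. Neither group was treated, and the labels give no age. Mice with Cre and intact Srsf3 are not among these groups.

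ATF4 is a bZIP transcription factor at the centre of the integrated stress response. Kinases that sense a shortage of amino acids or heme, viral RNA, or misfolded protein in the endoplasmic reticulum phosphorylate the initiation factor eIF2. General protein synthesis then falls while the Atf4 mRNA, through its upstream reading frames, is translated more, so ATF4 activity can change without a change of its mRNA. ATF4 and its C/EBP partners bind composite elements near genes of amino acid synthesis, amino acid transport and stress signalling. In heart and skeletal muscle, disturbed mitochondria are known to engage the same genes.

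Among these genes, 4 rose in cKO hearts and 6 did not pass the test. Slc3a2, Asns, Chac1 and Sesn2 were higher, by 1.37- to 3.62-fold, while the mRNA of Atf4 itself stood at 0.99 of its control level, from 0.87 to 1.12 within the 95% interval. Of all 15929 tested genes in the authors' deposited table, 7.09% passed an adjusted p under 0.05, with 3.78% higher and 3.31% lower in cKO. The median log2 fold change of the 10 genes was 0.29, and that of all tested genes was -0.0038. The genes were chosen with results of these hearts known, so their count is a description. Each level is 1 mean over the hearts and each fold 1 comparison with its standard error, and no value per heart was used.

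**Figure D1:**
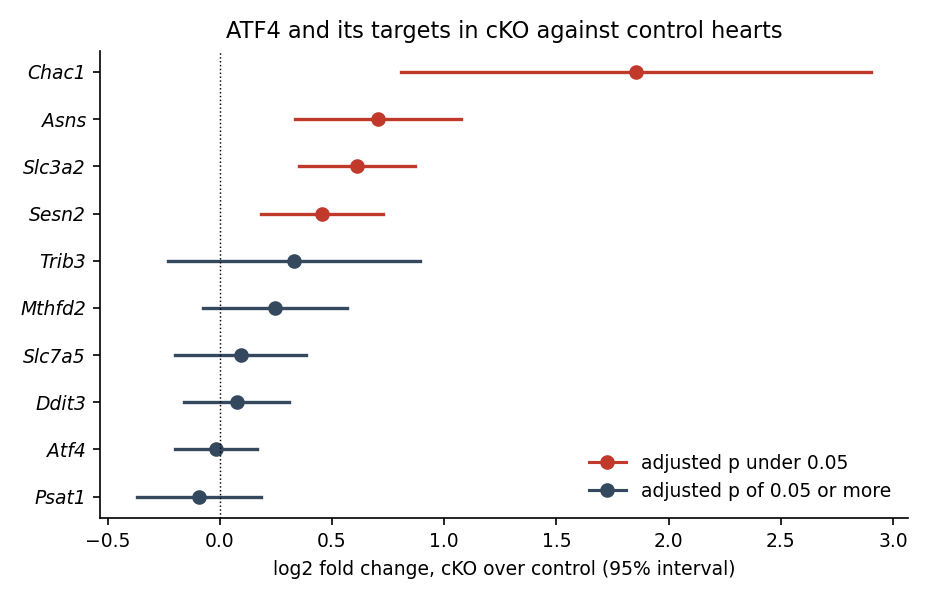
Log2 fold change of each gene in cKO over control hearts (points) with its 95% interval (lines), from the authors' fold changes and standard errors over 3 hearts a group. The intervals of Chac1, Asns, Slc3a2 and Sesn2 lie above 0, and those of the other 6 genes span 0.

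The deleted gene itself gave no check of the groups. Srsf3, which encodes a splicing factor rich in serine and arginine, was at a log2 fold change of 0.02 in the authors' deposited table (SE 0.07, adjusted p = 0.935). This value sums the whole gene and all cells of the heart, the labels do not name the floxed exons, and no event over an Srsf3 exon was analysed here. The groups therefore rest on the labels and, in the splicing table, on a column named for Cre. The gene table does not name the group that a fold is relative to, and the splicing values settled it. Exons included almost fully stand closer to 100% where more reads cover them, which ranks read depth between the groups gene by gene. Of 629 genes that passed and had such exons, 596 (94.8%) had a fold of the same sign as this depth. Positive values are therefore higher in cKO. The exact two-sided binomial p was 1.06e-134. It treats genes of the same hearts as independent, so it does not measure replication, and the direction rests on the share.

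Markers of other cells moved in the same hearts, and in bulk tissue fewer cells of a type and less RNA per cell cannot be told apart. Of 16 macrophage markers, 6 rose and all 16 values were positive, with a median log2 fold of 0.55 and 0 listed at 0. By the authors' deposited table, Lyz2 was at 1.11, Csf1r at 0.53, Adgre1 at 0.75 and Cd68 at 0.74. Of 12 cardiomyocyte markers, 6 fell, 12 had a negative fold and 0 were listed at 0, and the median was -0.31. By the authors' deposited table, Myl3 was at -0.41, Myl2 at -0.38, Actc1 at -0.40 and Tnni3 at -0.43. Of 10 fibroblast markers 1 fell, Thy1, and of 10 endothelial markers 1 rose, Vwf, with medians of 0.01 and -0.06. Summed levels per group were not analysed here, and the part of these cells in the rises of the ATF4 targets was not tested.

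The starts of these genes were searched for the composite element that ATF4 forms with C/EBP factors, because it is the sequence through which the response is known to act. Sequences from 250 bases before to 50 bases after a RefSeq start on GRCm38 were given for 9 of the 10 genes (10 entries, of 300 bases each). The 8-letter core TGATGNAA, where N is any base, was read on both strands. It was found in 3 of the 9 genes, Asns, Chac1 and Trib3. The promoters of Asns and Chac1, which rose, are shown whole, with matches in capitals.
Asns, chr6:7693160-7693459, minus strand: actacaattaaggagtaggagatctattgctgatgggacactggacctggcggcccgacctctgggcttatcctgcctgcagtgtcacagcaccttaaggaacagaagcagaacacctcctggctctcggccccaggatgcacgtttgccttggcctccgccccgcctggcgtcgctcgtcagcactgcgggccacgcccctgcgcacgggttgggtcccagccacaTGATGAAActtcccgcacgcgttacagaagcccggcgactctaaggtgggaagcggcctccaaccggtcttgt
Chac1, chr2:119350992-119351291, plus strand: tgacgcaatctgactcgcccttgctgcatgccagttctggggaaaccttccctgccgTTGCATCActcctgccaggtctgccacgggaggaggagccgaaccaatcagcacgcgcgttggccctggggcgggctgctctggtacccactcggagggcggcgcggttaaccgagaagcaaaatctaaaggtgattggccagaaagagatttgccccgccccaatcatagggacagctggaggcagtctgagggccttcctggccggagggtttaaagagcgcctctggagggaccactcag
In Asns the match TGATGAAA lies 23 to 16 bases before the RefSeq start. A GENCODE transcript of Asns begins further out, so that the match lies in its first exon. In Chac1 the core occurs on the opposite strand, printed as TTGCATCA, 193 to 186 bases before the start. In Trib3 it is printed as TTACATCA, 15 to 22 bases into the transcript. Of all 32851 RefSeq windows, 1304 (3.97%) hold TGATGNAA. Of the 11585 tested genes with a window, 2.88% hold it, beside 23 of 479 genes that rose (4.80%) and 17 of 389 that fell (4.37%). It was not found in the windows of Sesn2 and Slc3a2, which rose, nor in those of Atf4, Ddit3, Mthfd2 and Psat1. A match is a run of letters, not a measured binding site.

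The longest runs of bases that windows of different genes share were sought over 44 pairs of entries, on both strands. The longest were 12 bases, in 2 pairs, and none of these 4 genes passed the test. They are shown as 60-base windows with the shared run in capitals.
Trib3, chr2:152344058-152344117, minus strand: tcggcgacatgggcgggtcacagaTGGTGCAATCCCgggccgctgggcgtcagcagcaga
Psat1, chr19:15925160-15925219, minus strand: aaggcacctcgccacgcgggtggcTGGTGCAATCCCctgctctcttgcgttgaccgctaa
Atf4, chr15:80255040-80255099, plus strand: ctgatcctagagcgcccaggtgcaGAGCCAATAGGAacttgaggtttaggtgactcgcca
Mthfd2, chr6:83317620-83317679, minus strand: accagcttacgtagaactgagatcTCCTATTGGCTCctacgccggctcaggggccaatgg
The run of Trib3 and Psat1 occurs in 4 of the 32851 windows. That of Atf4 and Mthfd2, which lie on opposite strands relative to it, occurs in 14. In 5 further pairs the longest shared run was 1 base shorter.

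ATF4 and the regulators it acts with did not pass the test. Atf4, on chromosome 15 (80255184-80257541, plus strand, GRCm38), was the most abundant of the 10 per length, at 2104 normalized counts per kilobase of exon. Its log2 fold change was -0.02 by the authors' deposited table (SE 0.09, adjusted p = 0.958). Ddit3, which encodes CHOP, the factor linked to cell death under lasting stress, stood at 0.08 (SE 0.12, adjusted p = 0.811) and 442 counts per kilobase in the authors' deposited table. Ddit3, on chromosome 10 (127290774-127296288, plus strand), overlaps Gm4189 and Mars on the other strand, and the use of strand in counting is not given in the sources used here. Trib3, a pseudokinase that binds ATF4 and dampens it, stood at 0.33 with a wider error by the authors' deposited table (SE 0.29, adjusted p = 0.595). Its 95% interval runs from 0.85- to 1.85-fold and includes the estimates of Asns, Slc3a2 and Sesn2. For Atf4 and Ddit3 the intervals end at log2 fold changes of 0.17 and 0.31, below the estimate of each of the 4 genes that rose. The interval of Ddit3 still overlaps that of Sesn2, which starts at 0.18.

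Of the enzymes, asparagine synthetase rose and the serine and folate enzymes did not pass. Asns makes asparagine from aspartate and glutamine and lies on chromosome 6 (7675169-7693254, minus strand). It rose 1.63-fold, a log2 fold change of 0.71 (SE 0.19, adjusted p = 0.00658), at a mean of 274 normalized counts in the authors' deposited table. Psat1, the aminotransferase of serine synthesis, was at -0.09 by the authors' deposited table (SE 0.14, adjusted p = 0.803), with a 95% interval from 0.77- to 1.13-fold. Mthfd2, the mitochondrial folate enzyme that is low in most adult tissues, was at 0.25 by the authors' deposited table (SE 0.16, adjusted p = 0.447), from 0.95- to 1.48-fold. The interval of Psat1 ends below the lower bound of Asns, 1.26-fold, and that of Mthfd2 overlaps the interval of Asns. Mthfd2 overlaps Gm43890 on the same strand and Psat1 overlaps Gm3329 on the other.

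Of the amino acid transporter subunits, the shared heavy chain rose. Slc3a2 encodes the glycoprotein CD98, which carries several light chains to the cell surface, and lies on chromosome 19 (8706882-8723369, minus strand). It rose 1.53-fold (log2 0.61, SE 0.13, adjusted p = 0.00029), the smallest p of the 10 genes, at 470 counts per kilobase in the authors' deposited table. Slc7a5, the light chain LAT1 for large neutral amino acids, was at 0.09 (SE 0.15, adjusted p = 0.816) and 190 counts per kilobase in the authors' deposited table. Its interval, from 0.87- to 1.31-fold, overlaps that of Slc3a2, from 1.28- to 1.83-fold. Slc7a5 lies within the long gene Gm20388 on the opposite strand. Of the other light chains of CD98, Slc7a11, the cystine transporter, was at 0.59 (SE 0.24, adjusted p = 0.134) and Slc7a8 at 0.51 by the authors' deposited table (SE 0.21, adjusted p = 0.136). Slc7a6 and Slc7a7 were both at 0.28, with adjusted p = 0.371 and 0.324 in the authors' deposited table. None of these 4 passed, and they were chosen with their values known.

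Sesn2 and Chac1, effectors of the response on growth and on glutathione, both rose. Sesn2, a leucine sensor that holds back mTORC1, lies on chromosome 4 (132492032-132510501, minus strand). It rose 1.37-fold by the authors' deposited table (log2 0.46, SE 0.14, adjusted p = 0.0218). Gm12981 overlaps it on the same strand. Its relatives Sesn1 and Sesn3 were at -0.09 and -0.05, with adjusted p = 0.786 and 0.883 in the authors' deposited table. Chac1, which degrades glutathione, lies on chromosome 2 (119351229-119354381, plus strand) and had the largest fold and the lowest abundance of the 10. It rose 3.62-fold (log2 1.86, SE 0.53, adjusted p = 0.0137) at a mean of 25 normalized counts in the authors' deposited table. With so few counts the 95% interval is wide, from 1.75- to 7.48-fold, and 0.421% of all tested genes had a higher log2 fold. Its relative Chac2 was at -0.44 by the authors' deposited table (SE 0.17, adjusted p = 0.0994), not past the threshold. Sesn1, Sesn3 and Chac2 were chosen with their values known. Other pipelines of the authors called fewer of the 10: Slc3a2 and Chac1 are in the sleuth list, which holds 1.41% of all 36558 genes. Chac1 alone is in the featureCounts list, which holds 0.468% of them. The share passing DESeq2 is instead over the 15929 tested genes, so these shares are not on the same base.

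**Figure D2:**
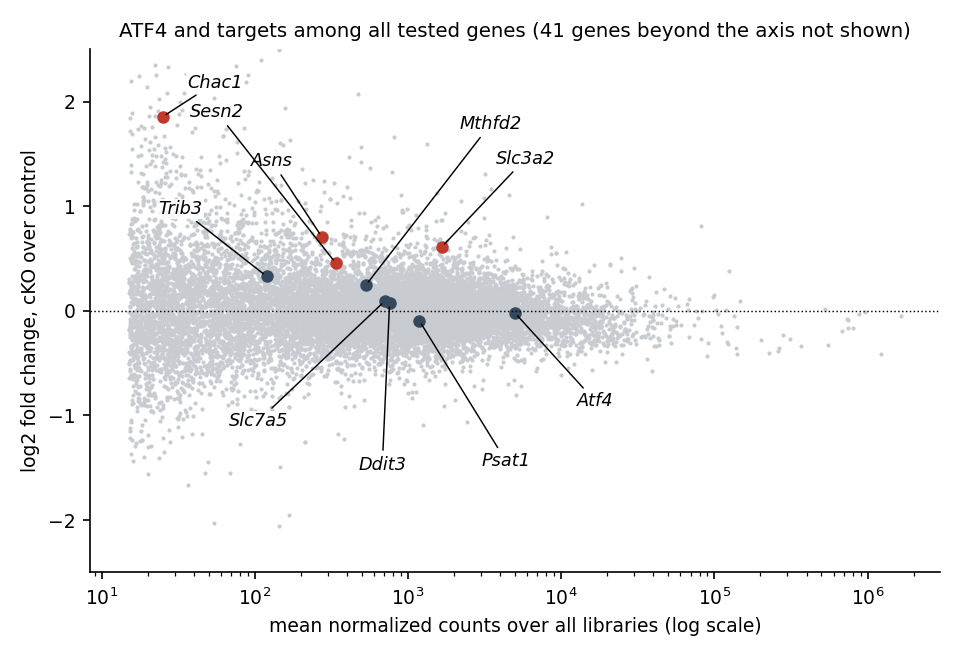
Log2 fold change in cKO over control hearts against mean normalized counts on a log scale, for all tested genes (grey) and for ATF4 and its targets (red where the adjusted p is under 0.05, dark otherwise). Chac1 lies at 25 counts, the lowest of the 10, and Atf4, at 4962 counts, lies on the zero line.

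Exon coverage gave a second reading of the same hearts. For 6 of the 10 genes at least 3 exons were included almost fully in both groups, and their read depth in cKO over control was set relative to the median of all genes. On the log2 scale this depth was 0.65 for Slc3a2 (7 exons), 0.49 for Asns (9 exons) and 0.42 for Sesn2 (8 exons). It was 0.03 for Mthfd2 (4 exons), -0.04 for Slc7a5 (8 exons) and -0.10 for Psat1 (3 exons). The 3 genes that passed thus stood above the 3 that did not, and 5 of the 6 had the sign of their fold, Slc7a5 being the exception. Both readings use the same libraries and are not independent replicates. The direction of all folds was settled from this depth, over genes that include the 3 that passed. Their agreement of sign is therefore not a separate check.

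**Figure D3:**
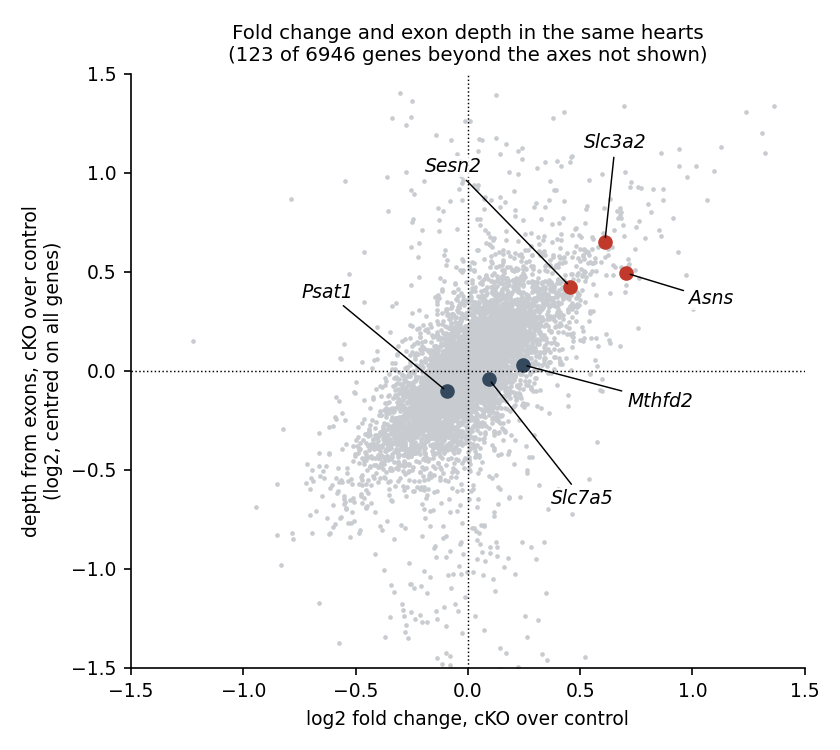
Read depth from almost fully included exons, cKO over control (log2, centred on all genes), against the authors' log2 fold change, for all tested genes with such exons (grey) and the 6 genes of the ATF4 group that have them. Slc3a2, Asns and Sesn2 lie at 0.65, 0.49 and 0.42, and Mthfd2, Slc7a5 and Psat1 at 0.03, -0.04 and -0.10.

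Upstream of ATF4, no kinase of eIF2 passed the authors' DESeq2 test. Of 4, 0 were called, 1 had an unadjusted p under 0.05 and 0 are in the sleuth list. With 7.09% of all tested genes passing, 0 of 4 does not set these genes apart. Eif2ak3, the endoplasmic reticulum kinase PERK, was at 0.25 by the authors' deposited table (SE 0.11, adjusted p = 0.149). Eif2ak1, the heme-regulated kinase HRI that also relays mitochondrial stress, was at 0.18 by the authors' deposited table (SE 0.10, adjusted p = 0.317). Eif2ak2, the RNA sensor PKR, was at -0.12 and Eif2ak4, the amino acid sensor GCN2, at -0.05 in the authors' deposited table, with adjusted p = 0.579 and 0.9. mRNA levels do not report the activity of these kinases.

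Subunits of eIF2, its exchange factor eIF2B and the eIF2 phosphatase did not pass either. Of 10, 0 were called by DESeq2 and 2 had an unadjusted p under 0.05. As 7.09% of all tested genes passed, 0 of 10 does not set this list apart. The most abundant, the eIF2 subunits Eif2s3x and Eif2s2, were at 0.09 and -0.11 in the authors' deposited table. Ppp1r15a, the inducible phosphatase subunit GADD34 and itself a target of the response, was the 1 of the 10 in the sleuth list, at 0.34 by the authors' deposited table (SE 0.18, adjusted p = 0.279). It was chosen with its value known.

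In the relay from mitochondria, 1 of 8 tested genes rose and 0 fell, with a median log2 fold of -0.12. This was 12.5%, beside 7.09% of all tested genes. Lonp1, the matrix protease, rose to a log2 fold change of 0.30 in the authors' deposited table (SE 0.09, adjusted p = 0.0211). Dele1 and Oma1, which together carry the signal from the inner membrane to HRI, were at -0.13 and 0.04, with adjusted p = 0.354 and 0.908 in the authors' deposited table. Of the secreted stress hormones, Gdf15 was at 0.26 by the authors' deposited table (SE 0.35, adjusted p = 0.774). Fgf21, at a mean of 0.943 counts, was at 1.90 (SE 2.66) in the authors' deposited table and was given no adjusted p. Dele1, Oma1, Gdf15 and Fgf21 were chosen with their values known.

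bZIP partners and other stress factors gave 0 calls of 10 by DESeq2, with 0 at an unadjusted p under 0.05 and 0 in the sleuth list. Beside the 7.09% of all tested genes that passed, 0 of 10 does not set this list apart. The most abundant, Nfe2l1 and Jun, were at 0.17 and 0.28 in the authors' deposited table. Atf3, a target of ATF4 and of other stress pathways, had the highest value of the list at 0.94, with a standard error of 0.61 (adjusted p = 0.427) by the authors' deposited table. It was chosen with its value known.

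Beyond the 9 targets named at the start, further targets of ATF4 passed at a share near that of all tested genes. Over 61 tested genes of 4 lists, 4 rose and 1 fell, with a median log2 fold of 0.06. In either direction this was 8.20%, beside 7.09% of all tested genes, of which 3.78% were higher and 3.31% lower. Among 14 genes that comprise aminoacyl-tRNA synthetases and the tRNA exporter Xpot, 2 rose and 0 fell: Tars, for threonine, by 0.38 (SE 0.09, adjusted p = 0.00209) and Sars, for serine, by 0.30, as given in the authors' deposited table (SE 0.09, adjusted p = 0.0125). Tars is also among the 11 of 479 risen genes (2.30%) whose RefSeq window holds TGATGCAA, the form found in Chac1. Chac1 is itself among these 11, and of the 4 further targets that rose only Tars is. The difference between the shares of this form was not tested. The share was 0.725% of all tested genes with a window, and 4 of 389 fallen genes (1.03%) hold it, among them Got1.

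Of 20 other targets, 2 rose and 0 fell: the cell cycle inhibitor Cdkn1a by 0.62 and the autophagy receptor Sqstm1 by 0.54, with adjusted p = 1.86e-07 and 1.57e-06 in the authors' deposited table. Cdkn1a is a target of p53 as well. Ddit4, a brake on mTORC1, was at -0.16 (adjusted p = 0.567) and Herpud1 of the endoplasmic reticulum at 0.03 (adjusted p = 0.917) in the authors' deposited table; both were chosen with their values known. In the list of serine, glycine and one-carbon enzymes, 1 of 15 fell and 0 rose, with a median of -0.10. It was Got1, the cytosolic aspartate aminotransferase, at -0.20 by the authors' deposited table (SE 0.07, adjusted p = 0.0307). Phgdh and Shmt2, which flank Psat1 and Mthfd2 in the pathway, were at 0.06 and -0.18, with adjusted p = 0.914 and 0.249 in the authors' deposited table, and were chosen with their values known. Amino acid transporters gave 0 calls of 13 by DESeq2, beside 7.09% of all tested genes. In this list 3 had an unadjusted p under 0.05 and 0 are in the sleuth list. The most abundant transporters, Slc38a2 and Slc6a6, were at 0.06 and 0.33 in the authors' deposited table.

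**Figure D4:**
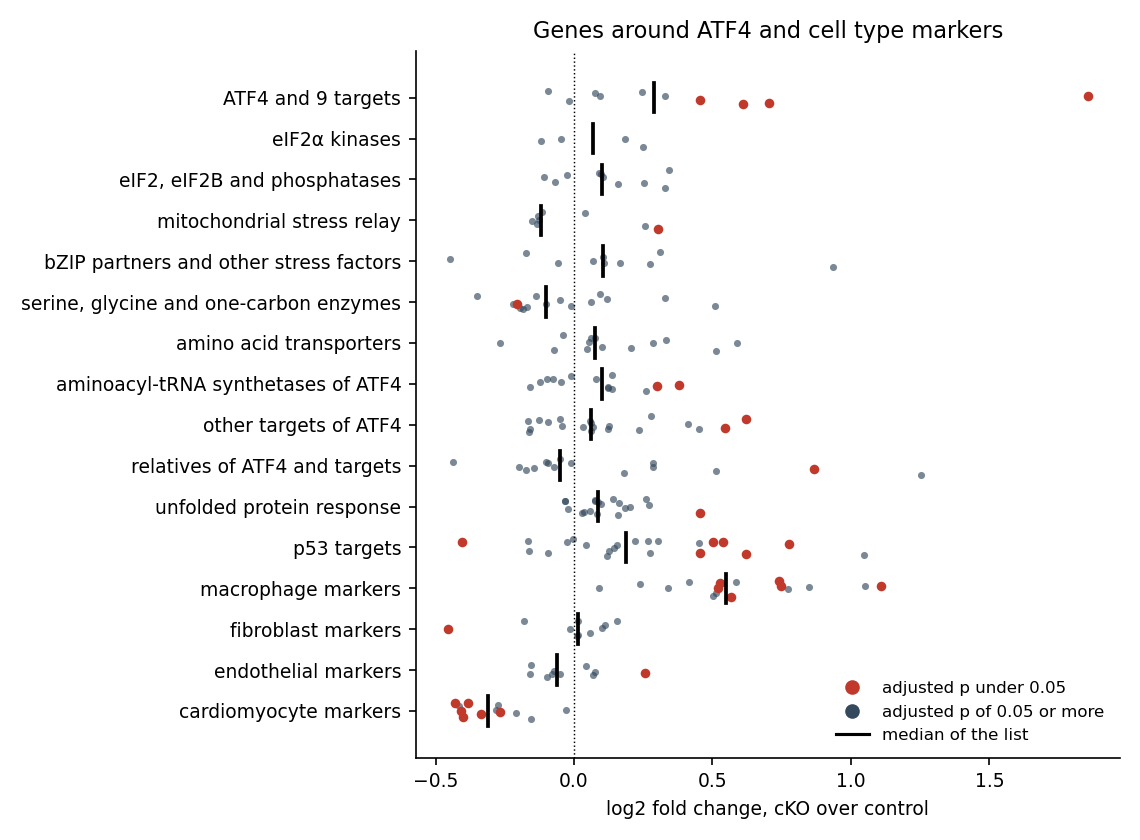
Log2 fold change in cKO over control of each tested gene (points, red where the adjusted p is under 0.05) by list, with the median of each list as a black bar. Macrophage markers have a median of 0.55 and cardiomyocyte markers of -0.31, and the lists around ATF4 lie between -0.12 and 0.19 apart from ATF4 and its 9 targets at 0.29.

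Over all lists of pathway genes, neighbouring stress programmes and relatives, without the 10 genes, 10 of 135 tested genes rose and 2 fell. In either direction this was 8.89%, beside 7.09% of all tested genes. Rises also outnumbered falls over all tested genes, of which 3.78% were higher and 3.31% lower. The balance of direction in these lists was not tested. In the unfolded protein response list 1 of 19 rose (5.26%), Atf6, a sensor of misfolded protein, given as 0.46 in the authors' deposited table (SE 0.12, adjusted p = 0.00644), while 16 of the 19 values were positive with a median of 0.09. Of 22 targets of p53, which include Sesn2, 5 rose and 1 fell (27.3%), with a median of 0.19. The 4 with the smallest adjusted p were Cdkn1a, the nuclease Aen at 0.50, Trp53inp1 at 0.78 and Perp, which fell by 0.41, in the authors' deposited table. Among 15 tested relatives of the 10 genes by sequence or partner, 1 rose and 0 fell (6.67%). It was Creb3, a bZIP factor anchored in the membrane of the endoplasmic reticulum, at 0.87 in the authors' deposited table (SE 0.09, adjusted p = 3.88e-18).

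No listed splicing event of these genes reached the threshold used here. It asks for 10 percentage points or more in the authors' minimum change, the change exceeded with probability 0.95. That was met by 0 of the 139 events and 0.23% of all 265079 events. At 5 points the counts were 0 of 139 and 0.633%, and 2 of 139 differed by at least 10 points whatever the probability, against 2.46%. The authors give 1 inclusion level per group for each event, with the hearts of a group combined. The events comprise 43 exons, 55 introns, 21 alternative 3′ splice sites and 20 alternative 5′ splice sites, and 129 of the 139 differed by less than 3 points.

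The event with the largest difference was exon 2 of Asns, at chr6:7639252-7639523 on mm9. This exon of 272 nt was included at 97.3% in control and 83.0% in cKO, lower by 14.3 points, with a minimum change of 3 points. It was the 1 event of the 139 with a minimum change above 0, against 2.22% of all events. The exon was numbered by matching the lengths and order of 10 Asns exons to a GENCODE M21 transcript of 12 exons. It holds the start codon, in capitals here, and the 249 coding bases that open the glutaminase domain (GRCm38 chr6:7689252-7689500, minus strand).
Asns exon 2, coding part: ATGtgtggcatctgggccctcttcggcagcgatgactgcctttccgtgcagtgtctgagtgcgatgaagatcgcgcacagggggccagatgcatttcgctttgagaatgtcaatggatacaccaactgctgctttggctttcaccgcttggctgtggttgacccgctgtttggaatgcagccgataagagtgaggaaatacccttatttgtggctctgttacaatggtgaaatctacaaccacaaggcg
The next exon, exon 3, was included at 97.8% in control and 97.3% in cKO. Exons 4 to 11 were all slightly higher in cKO, from 98.7% to 99.1% in control and from 99.3% to 99.6% in cKO. Over all genes with such exons, the median log2 ratio of depth, cKO over control, was 0.39. The total of Asns mRNA rose in the same hearts, and the table of genes does not separate transcripts with and without exon 2.

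An intron of Trib3 had the other difference above 10 points. At chr2:152169064-152169592 on mm9, it was retained at 5.18% in control and 16.4% in cKO, with a minimum change of 0, so the difference was not called. The alternative 3′ splice site of Trib3 next to this intron was used at 94.8% and 89.2%. The 2 most retained introns listed for these genes, in both groups, were the first and second of Ddit3. The first was retained at 24.3% in control and 25.9% in cKO, the second at 21.8% and 17.8% and the third at 9.94% and 7.78%, and the exon of 48 nt between the first and second introns was included at 80.9% and 83.5%. Both introns of Atf4 were retained at no more than 3.15% in either group. In Sesn2 the largest difference was an intron retained at 7.37% in control and 1.68% in cKO. For Slc3a2, Slc7a5, Mthfd2 and Psat1 the largest difference was between 1.46 and 2.28 points. The minimum change was 0 for all of these events. No event of Chac1 was analysed here.

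**Figure D5:**
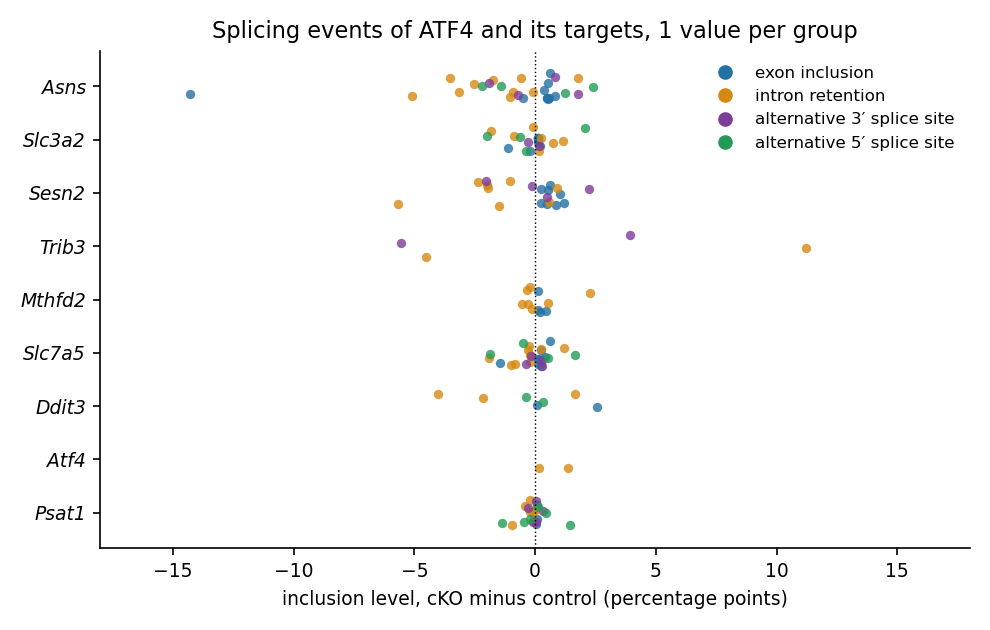
Difference of inclusion level, cKO minus control in percentage points, for each listed event of the 9 genes that have any, coloured by type, with 1 value per group and no replicate error. Exon 2 of Asns lies at -14.3 and an intron of Trib3 at 11.2, and 129 of 139 events lie within 3 points of 0.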

How the data were processed

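RNA of 3 control and 3 cKO hearts was extracted with Trizol and made into stranded libraries, per the labels' protocols. The authors used DESeq2 1.24.0, kallisto 0.46.0, Trimmomatic 0.38 and FastQC 0.10.1, per the submitters' processing notes, which give no roles or order. The authors named the gene table used here for kallisto and DESeq2. Versions of vast-tools, sleuth and featureCounts are not stated in those notes. Per the file headers, the authors deposited a mean normalized signal (normalized counts), a log2 fold change with its standard error, a Wald score, and a p-value with its adjusted value for each gene. The deposited splicing table gives inclusion as a fraction per group, printed here as percent. Its minimum change of inclusion is on the same scale and is printed here in percentage points. Depth per sample is unknown, and no values per heart were used, so the count test fixed for such values was replaced by the authors' test. The series' design text calls the 3 hearts of a group biological replicates; litters are not given.

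Gene IDs were matched to symbols for 35856 of 36558 genes with a reference table of gene names; positions and exon lengths are from GENCODE M21. Intervals are the fold ± 1.96 standard errors (95%). Counts per kilobase divide the mean by the gene's total exon length, whatever its isoforms. The authors' DESeq2 test gave a p-value for 25665 genes and an adjusted p for 15929 of them, here called the tested genes. Exon depth used exons within 3 points of full inclusion, at least 3 a gene. Longest shared promoter runs were sought after the sequences had been read. Work was done in Python 3.11.15 with pandas 2.3.3, numpy 2.4.6, scipy 1.17.1 and matplotlib 3.10.9.

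The genes and lists were chosen with earlier results of these data known. Named genes are the 10, all kinases of eIF2, up to 4 genes per list that passed, by smallest adjusted p, or the 2 most abundant of a list without any; others are marked where they appear. Events named are those past the threshold, or the largest difference per gene; the other events of Asns, Ddit3, Trib3 and Atf4 that the text gives were chosen with their values known. Markers of fibroblasts, endothelium, macrophages and cardiomyocytes were counted in the same way.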

Additional observations from a re-analysis of the deposited data

How the results depend on the processing

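The count of 4 genes that rose stayed at 4 when p-values were adjusted over all 25665 genes that have one or over genes whose mean count reaches 10. With a floor of 100 it was 3, since Chac1, at a mean of 25 counts, was then not tested. The authors' sleuth list holds 2 of the 10 genes, Slc3a2 and Chac1, and their featureCounts list 1, Chac1; the cause was not tested. Centring on the median of all tested genes left the direction of each of the 10 folds as it was. With a minimum change above 0 in place of 10 points, 1 splicing event was called, and 2 differed by at least 10 points with no probability threshold. The share of genes whose depth had the sign of their fold ran from 75.3% with introns to 95.3% with at least 5 exons. No paired analysis was possible because no values per heart were used, and for the same reason no heart was left out in turn.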
